A study of Homo sapiens with 3 samples.

Results

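Cytosolic heat shock proteins and their small relative CRYAB are described here in LNCaP, a long-established and androgen-dependent line of human prostate cancer cells. The 10 genes are HSPA6, HSPA1A, HSPA1B, HSPA8, HSPB1, CRYAB, DNAJB1, HSPH1, HSP90AA1 and BAG3, out of 58884 gene rows in the count table, and they were taken as the rows whose Ensembl identifiers carry these names in GENCODE release 29. They were chosen by the counts of these same libraries, in which HSPA6 and CRYAB stood among the genes with the largest decreases, so their ratios are given as a description and without a test. RNA-seq was available for 3 libraries, 1 each from cells in control-CM, PVAT-CM (marked normal in the labels) and PPAT-CM (marked tumor), where CM is conditioned medium and PPAT is the periprostatic adipose tissue of the series title. The labels do not expand PVAT. LNCaP cells were grown with 10% fetal bovine serum, seeded for 24 h, then kept for 72 h in a mixture with 50% of the conditioned medium and 2% serum, so the control cells also spent that time in conditioned medium and low serum. Neither a donor nor a batch of tissue is tied to a library in the labels, and 1 culture stands for each medium.

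Heat shock proteins are chaperones that bind unfolded stretches of other proteins and keep them from clumping. The HSP70 family works in cycles of ATP binding and release, J-domain proteins such as DNAJB1 hand clients to it, HSP110 proteins such as HSPH1 and BAG-domain proteins such as BAG3 reset it, and HSP90 finishes the folding of many kinases and of steroid receptors. Small heat shock proteins such as HSPB1 and CRYAB hold unfolded proteins without using ATP. HSPA8 is the constitutive cytosolic HSP70, while HSPA1A, HSPA1B and HSPA6 are stress-inducible members whose transcription is driven by the heat shock factor HSF1. HSF1 binds heat shock elements, which are inverted repeats of the unit GAA in the promoters of its targets.

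The promoters of 3 HSP70 genes are shown because HSPA6, HSPA8 and HSPA1B each held a pair of inverted GAA units. Their counts compared differently between the libraries. HSPA6 and HSPA8 also held 3 exact units in a row, which HSPA1B did not. A promoter window, from 250 bases before to 50 bases after 1 annotated start, was found in the RefSeq table (GRCh38.p14) for 9 of the 10 genes, all but CRYAB. Each window was searched on both strands for a pair of units, GAANNTTC or TTCNNGAA, which are their own reverse complements, and for 3 units in a row, GAANNTTCNNGAA or its reverse complement TTCNNGAANNTTC, which contain the pairs. Below are the 250 bases before the start, 5′ to 3′ on the strand of the gene, with every matched base in capitals. HSPA6 lies at chr1:161524290-161524539 (plus strand), HSPA8 at chr11:123062137-123062386 (minus strand) and HSPA1B at chr6:31827488-31827737 (plus strand).
HSPA6: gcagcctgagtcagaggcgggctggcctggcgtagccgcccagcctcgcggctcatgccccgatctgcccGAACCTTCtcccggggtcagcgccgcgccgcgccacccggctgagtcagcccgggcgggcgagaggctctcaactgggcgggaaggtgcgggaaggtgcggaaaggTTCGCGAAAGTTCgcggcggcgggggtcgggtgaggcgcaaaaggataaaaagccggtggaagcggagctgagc
HSPA8: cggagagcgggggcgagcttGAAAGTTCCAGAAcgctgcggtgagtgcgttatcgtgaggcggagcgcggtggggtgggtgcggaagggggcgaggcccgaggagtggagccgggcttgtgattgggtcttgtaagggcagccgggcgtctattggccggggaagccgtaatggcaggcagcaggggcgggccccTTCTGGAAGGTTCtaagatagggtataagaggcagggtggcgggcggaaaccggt
HSPA1B: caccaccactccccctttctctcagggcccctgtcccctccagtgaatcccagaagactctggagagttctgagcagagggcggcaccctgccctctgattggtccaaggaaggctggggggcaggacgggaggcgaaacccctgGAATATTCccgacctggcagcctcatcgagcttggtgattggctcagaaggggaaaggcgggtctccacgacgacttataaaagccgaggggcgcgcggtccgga

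HSPA6 held a 3-unit element that begins at position -74, counted from the start, and a separate pair at -180. HSPA8 held a 3-unit element in each orientation, beginning at -230 and -55. HSPA1B held a single pair at -105, HSPA1A the same 8 bases at -106, and HSPB1 a pair at -182, although no protein-coding HSPB1 transcript of GENCODE starts within 100 bases of the start in the table. In all, 5 of the 9 windows held a pair and 2 held a 3-unit element, against 13.5% and 0.490% of 35116 promoter windows of the same length. No match was found for DNAJB1, HSPH1, HSP90AA1 and BAG3 in these windows, but each window covers 1 start only, and protein-coding transcripts of these genes are annotated as far as 11702, 23820, 52705 and 5230 bases downstream of it. Only exact units at this fixed spacing were sought, so an element with a changed base or another spacing is not counted. A match is a description of letters and not a bound site.

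**Figure D1:**
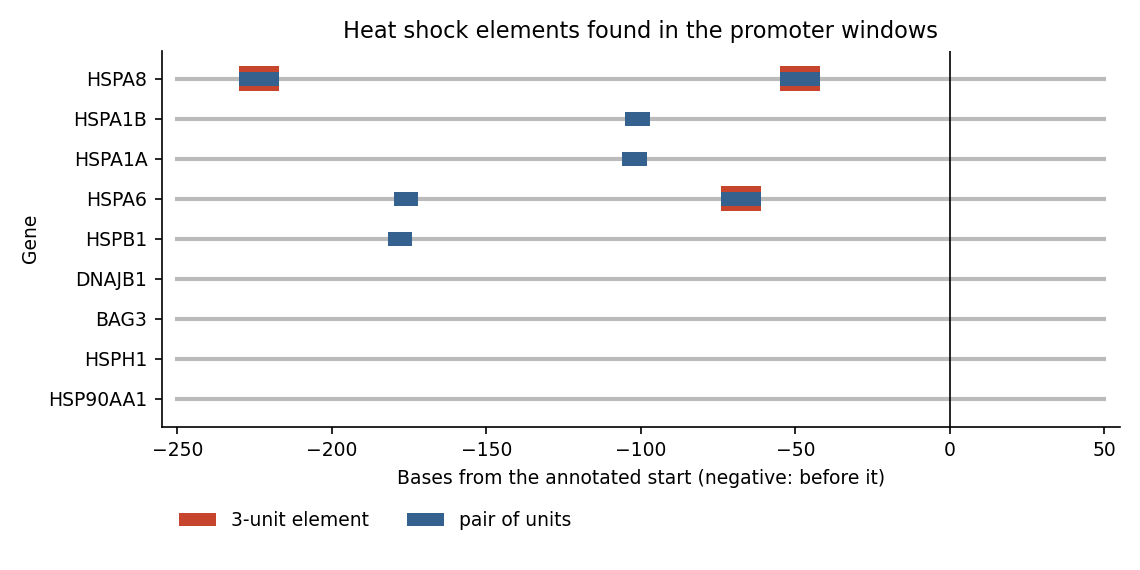
Position of heat shock elements in the 300-base promoter windows of 9 genes, in bases from the annotated start (x axis), 1 gene per row. Blue boxes are pairs of units and red boxes are 3-unit elements, which contain pairs. The 2 genes with 3-unit elements, HSPA8 and HSPA6, had ratios of opposite sign in PPAT-CM against control-CM. Whether elements and ratios are linked was not tested.

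Library totals lay between 14174241 and 16965584 counts, and mitochondrially encoded genes took 30.8% of them in control-CM against 21.1% in PVAT-CM and 15.5% in PPAT-CM. Levels are given as TMM-scaled CPM (scaled CPM), and where 3 values follow each other they run from control-CM through PVAT-CM to PPAT-CM. Their floors, the levels that a count of 0 allows, were 0.198, 0.210 and 0.163. All intervals are 95% counting intervals that leave out the variation between cultures, which 1 library per medium cannot show. Among the prostate markers KLK3, which encodes prostate-specific antigen, had 10286, 9982 and 4577 counts, and KLK2, KLK3 and TMPRSS2 were at least 1.5-fold lower in PPAT-CM than in control-CM. Of markers of other cells, the 8 leukocyte markers summed to 14 to 21 counts with PTPRC at 0 in every library, the 5 endothelial markers to 16 to 35 with CDH5 at 0, and the 6 muscle markers to 17 to 54 with DES at 0. The 8 adipocyte markers summed to 152, 180 and 280 counts, highest in PPAT-CM, with ADIPOQ, LEP, FABP4 and LPL at 0 in every library. The lipid droplet gene PLIN1 of that list had 13, 27 and 89 counts and was 5.65-fold higher in PPAT-CM than in control-CM (3.14 to 11). The 7 fibroblast markers summed to 792, 371 and 534 counts, highest in control-CM, with COL1A2, DCN and PDGFRA at 0. Nearly all of these came from COL1A1, with 718, 323 and 478 counts. The part of these markers in the results below was not tested.

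HSPA8 was higher and HSPA6, CRYAB and HSPB1 were lower in PPAT-CM than in control-CM, while the other heat shock genes stayed within 1.5-fold. A gene was measured if its mean raw count over the 3 libraries was at least 50, which left 9 of the 10 members (not HSPA1A) and 12256 genes in all. HSPA6 passed through its counts in control-CM and PVAT-CM alone, and CRYAB through its count in control-CM alone, so both had to differ. Of the 9 measured members 3 were at least 1.5-fold lower in PPAT-CM against control-CM, where 8.71% of all measured genes were, and 1 was at least 1.5-fold higher, where 12.0% were. In PVAT-CM against control-CM 2 members were lower, CRYAB and HSPA6, and 0 were higher, against 3.49% and 3.15% of all genes. In PPAT-CM against PVAT-CM 1 member was lower, HSPA6, and 1 was higher, HSPA8, against 6.07% and 8.56%. Of all calls in PPAT-CM against control-CM 58.0% were on the higher side, but 84.6% by library totals alone and 47.0% with upper quartile factors. These ratios took part in choosing the members, so nothing is read from the difference from the background. Both comparisons with control-CM use the same control library, and their ratios are not independent of each other.

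**Figure D2:**
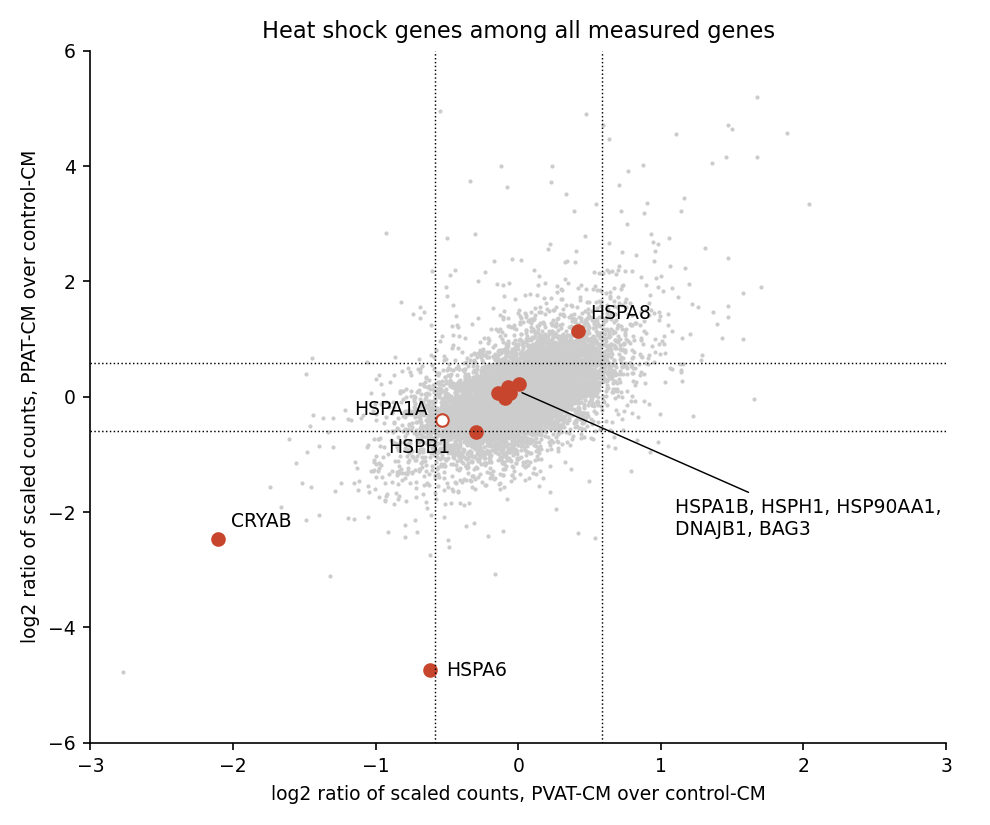
log2 ratio of TMM-scaled counts for PVAT-CM over control-CM (x axis) and PPAT-CM over control-CM (y axis), with 12256 measured genes in grey and the 10 heat shock genes in red (HSPA1A, below the count filter, is open). Dotted lines mark 1.5-fold, and 7 grey genes lie outside the axes. CRYAB is far to the left and below, HSPA6 is far below and only a little to the left, HSPA8 is above, and 5 members sit near the centre. The x and y values share the control library.

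The constitutive HSP70 gene HSPA8 (ENSG00000109971, chromosome 11, 123057489 to 123063230, minus strand, GRCh38) had 3107, 3905 and 8276 counts. Its level stepped up from 205 to 274 to 450 scaled CPM in that order, and the intervals of the ratios between the libraries exclude 1. It was 2.20-fold higher in PPAT-CM than in control-CM (2.11 to 2.29), with 365 of the measured genes showing a higher ratio. In PVAT-CM it was 1.34-fold higher than in control-CM (1.28 to 1.40), and PPAT-CM exceeded PVAT-CM by 1.64-fold (1.58 to 1.71). The mitochondrial share moved in the opposite order over the libraries. With 5 other scalings, among them TMM without mitochondrially encoded genes, the ratio of PPAT-CM to control-CM lay between 2.09 and 2.60. The introns of HSPA8 host small nucleolar RNAs, of which SNORD14E had 12, 21 and 12 counts and SNORD14C and SNORD14D had 0. Its 17 annotated pseudogenes together had 12, 25 and 25 counts, at most 0.636% of the counts of gene and copies.

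HSPA6, the strictly stress-inducible HSP70 gene (ENSG00000173110, chromosome 1, 161524540 to 161526910, plus strand), had 100, 61 and 4 counts. PPAT-CM stood apart as the low library, at 0.218 scaled CPM, close to the limit that a count of 0 allows, against 6.59 and 4.28. The gene was 30.3-fold lower in PPAT-CM than in control-CM (11.5 to 113) and 19.7-fold lower than in PVAT-CM (7.30 to 74.5), and in each of these comparisons 1 measured gene had a lower ratio. The ratio of PVAT-CM to control-CM was small beside these, 1.54-fold lower (1.11 to 2.15). It did not reach 1.5-fold by library totals alone, where it was 1.40-fold lower. HSPA7, a pseudogene copy of HSPA6, had 2, 2 and 0 counts, at or under the floor. A share of 27.6% of the 100-base windows of the HSPA6 transcript also occurs in HSPA7, and none occurs in a transcript of another gene, although the read length is not given in the labels.

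The inducible pair HSPA1A and HSPA1B, neighbours on chromosome 6 within the major histocompatibility complex, encode the main heat-induced HSP70 and showed no such contrast. HSPA1B (ENSG00000204388) had 1001, 881 and 1193 counts, or 66.0, 61.8 and 64.9 scaled CPM. Its ratios to control-CM were 0.936 in PVAT-CM (0.854 to 1.03) and 0.983 in PPAT-CM (0.903 to 1.07), both changed direction when library totals were used, and the intervals include 1. HSPA1A (ENSG00000204389) was listed with 11, 7 and 10 counts, or 0.725, 0.491 and 0.544 scaled CPM. The transcripts are near-identical: 69.9% of the 100-base windows of HSPA1A occur also in HSPA1B, so the split of counts between these genes is uncertain and was not tested. Summed, the pair had 1012, 888 and 1203 counts, with ratios to control-CM of 0.934 in PVAT-CM (0.852 to 1.02) and 0.981 in PPAT-CM (0.901 to 1.07).

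The make-up of the transcripts of the 4 HSP70 genes among the members therefore differed between libraries, and shares within a library do not depend on the scaling. Other HSP70 genes are not part of this pool. HSPA8 made up 73.6% of the counts of the 4 HSP70 genes in control-CM (exact binomial interval 72.3 to 75.0) against 80.4% in PVAT-CM (79.3 to 81.6) and 87.3% in PPAT-CM (86.6 to 87.9). The inducible genes HSPA1A, HSPA1B and HSPA6 together made up 26.4%, 19.6% and 12.7%. HSPA6 alone accounted for 2.37% in control-CM (1.93 to 2.88) against 1.26% in PVAT-CM (0.963 to 1.61) and 0.0422% in PPAT-CM (0.0115 to 0.108). As a sum the 4 genes reached 278, 340 and 516 scaled CPM, which is 1.85-fold higher in PPAT-CM than in control-CM (1.79 to 1.92), and the step came from HSPA8.

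**Figure D3:**
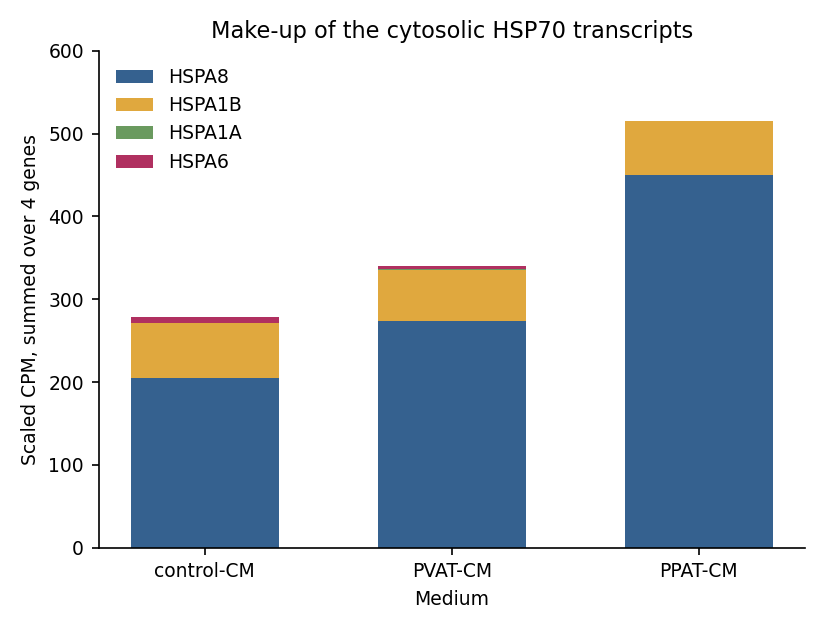
Scaled CPM of 4 cytosolic HSP70 genes, stacked, in each of the 3 libraries (x axis, medium). The bars reach 278, 340 and 516; the HSPA8 part grows from 205 to 450, the HSPA1B part stays between 61.8 and 66.0, and the HSPA6 part is visible in control-CM and PVAT-CM only, with HSPA1A too low to be seen.

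Among the small heat shock proteins, CRYAB, also known as alpha-B crystallin, was low in both adipose media. CRYAB (ENSG00000109846, chromosome 11, 111908565 to 111923722, minus strand) had 180 counts in control-CM and 39 in each of PVAT-CM and PPAT-CM, or 11.9, 2.74 and 2.12 scaled CPM. Control-CM stood alone as the high library, as it did for the fibroblast marker COL1A1, and whether the values are linked was not tested. The gene was 4.34-fold lower in PVAT-CM (3.05 to 6.30) and 5.60-fold lower in PPAT-CM (3.94 to 8.13), and the ratio between the adipose media had an interval that includes 1 (0.484 to 1.24). In PVAT-CM against control-CM 1 measured gene had a lower ratio than CRYAB, and in PPAT-CM 8 had. HSPB2 lies on the opposite strand within the annotated span of CRYAB, with 1852 shared bases, and had 0 counts in every library. The readthrough HSPB2-C11orf52, also on the opposite strand, shares 10987 bases with CRYAB and had 0 counts too. C11orf52 overlaps CRYAB as well and had 1, 1 and 0 counts. The strand setting is not given, so how reads from these overlaps were counted is uncertain.

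HSPB1, or HSP27, had the highest level of the 10 members per length of annotated exon, taken as the union over transcripts, in every library. That rank depends on the length used. HSPB1 (ENSG00000106211, chromosome 7, 76302544 to 76304295, plus strand) had 5627, 4298 and 4447 counts, or 371, 301 and 242 scaled CPM. Its level descended in the order in which that of HSPA8 climbed. The gene was 1.23-fold lower in PVAT-CM (1.18 to 1.28) and 1.53-fold lower in PPAT-CM than in control-CM (1.47 to 1.60). This second value lies just past the 1.5-fold line, and by library totals alone it was 1.30-fold lower. CRYAB made up 3.10% of the counts of HSPB1 and CRYAB in control-CM (2.67 to 3.58) against 0.899% in PVAT-CM (0.640 to 1.23) and 0.869% in PPAT-CM (0.619 to 1.19).

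The co-chaperones and HSP90 were nearly level. DNAJB1, the J-domain partner of inducible HSP70, had 1015, 907 and 1383 counts, or 66.9, 63.6 and 75.2 scaled CPM. It was 1.12-fold higher in PPAT-CM than in control-CM (1.04 to 1.22), and the interval for PVAT-CM includes 1 (0.868 to 1.04). TECR, on the opposite strand, shares 12686 bases of genomic span with DNAJB1 and had 2501, 2458 and 2130 counts. BAG3, which links HSP70 to small heat shock proteins and to autophagy, had 1035, 978 and 1458 counts, or 68.2, 68.6 and 79.3 scaled CPM. It was 1.16-fold higher in PPAT-CM than in control-CM (1.07 to 1.26). HSPH1, the HSP110 nucleotide exchange factor, had 1318, 1125 and 1674 counts, or 86.9, 78.9 and 91.0 scaled CPM. Its ratio of PPAT-CM to control-CM was 1.05 (0.974 to 1.13), and it fell just under 1 with upper quartile scaling.

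HSP90AA1, the stress-responsive cytosolic HSP90, was the member with the most counts in every library. It had 7439, 6732 and 9396 counts, or 490, 472 and 511 scaled CPM. The ratio of PPAT-CM to control-CM was 1.04 (1.01 to 1.07) and that of PVAT-CM to control-CM 0.963 (0.931 to 0.995), and each crossed 1 under another scaling, the former to 0.990 and the latter to 1.06. DNAJB1, HSPH1, HSP90AA1 and BAG3 together reached 713, 683 and 757 scaled CPM, a ratio of 1.06 for PPAT-CM over control-CM (1.04 to 1.09). These 4 genes and HSPA1B are inducible through HSF1 like HSPA6, and none of them was 1.5-fold lower in PPAT-CM than in control-CM. HSF1 activity was not measured, and its part in any of these ratios was not tested.

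**Figure D4:**
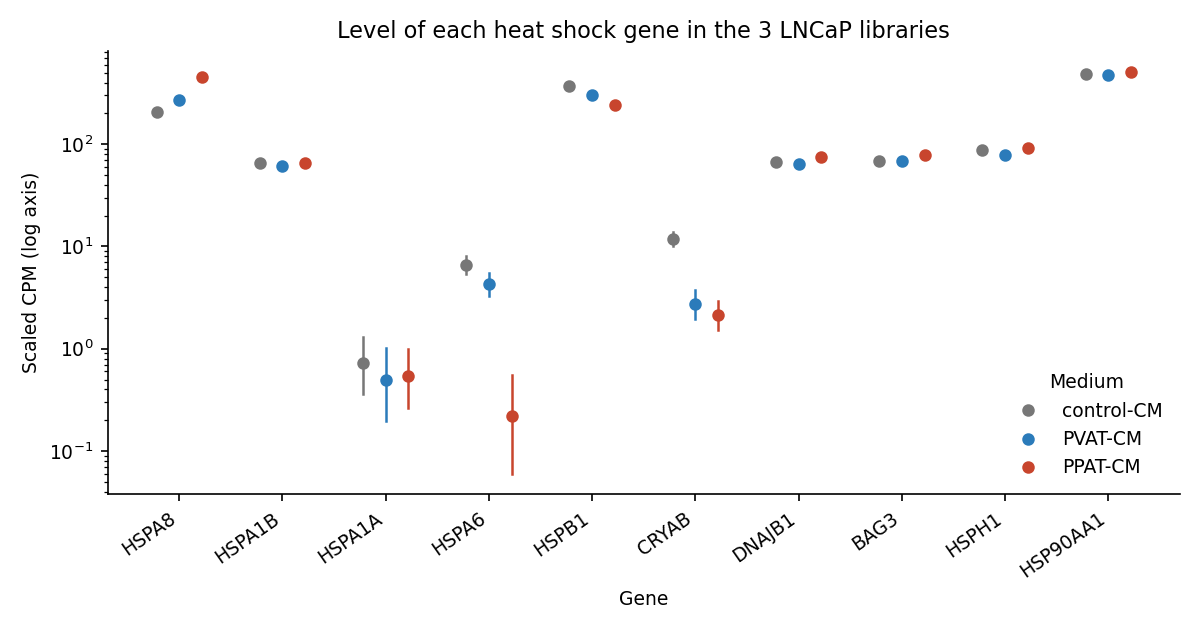
Scaled CPM (log axis) of the 10 heat shock genes in control-CM (grey), PVAT-CM (blue) and PPAT-CM (red), with exact Poisson 95% intervals of the counts as bars, which are smaller than the points for the abundant genes. HSPA6 drops in PPAT-CM to 0.218, CRYAB is low in both adipose media at 2.74 and 2.12, HSPA8 steps upward to 450, and HSP90AA1 stays between 472 and 511.

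Per kilobase of annotated exon the order in control-CM was HSPB1 (227 scaled CPM per kb), HSP90AA1 (93.5), HSPA8 (42.2), HSPA1B (26.2), BAG3 (24.8), DNAJB1 (18.2), HSPH1 (10.4), CRYAB (3.91), HSPA6 (2.78) and HSPA1A (0.292). In PPAT-CM HSPB1 stood at 148, HSP90AA1 at 97.4 and HSPA8 at 92.8 on this per-kb scale, so the last 2 lay side by side, while HSPA6 was lowest at 0.0917. Without replicates it cannot be said which neighbours in these orders differ beyond their spread. Exon length is the union over annotated transcripts, which is longer than the main transcript of genes such as HSPH1 and HSPA8 and lowers their per-kb level. The union and the longest annotated transcript had 4849 and 2463 bases for HSPA8, 5248 and 3510 for HSP90AA1, and 1634 and 1455 for HSPB1. The place of HSPA8 beside HSPB1 and HSP90AA1 therefore depends on the length used. Of the counts of all 10 members, HSPB1 made up 27.0%, 22.7% and 16.0%, HSPA8 14.9%, 20.6% and 29.7%, and HSP90AA1 35.7%, 35.6% and 33.7%.

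The heat shock factors did not share 1 direction. HSF1, the main activator of the response, had 966, 942 and 1571 counts and was 1.34-fold higher in PPAT-CM than in control-CM (1.24 to 1.45). HSBP1, a small protein that binds HSF1 trimers, had 1781, 1706 and 2795 counts and stood 1.29-fold higher (1.22 to 1.37). HSF4 had 1673, 983 and 1191 counts and was 1.60-fold lower in PVAT-CM (1.48 to 1.73) and 1.70-fold lower in PPAT-CM (1.58 to 1.84), the 1 of 5 measured genes of this list past 1.5-fold. Of all measured genes 3.49% were lower and 3.15% higher past 1.5-fold in PVAT-CM against control-CM. In PPAT-CM against control-CM 8.71% were lower and 12.0% higher. HSF2 was 1.24-fold lower in PPAT-CM (1.08 to 1.43), and the interval of HSBP1L1 includes 1 (0.876 to 1.01). HSF5 had 0 counts in every library and HSF2BP had 30 to 34.

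Other heat-inducible HSF1 targets were spread to both sides. All 22 genes of that list were measured, and past 1.5-fold in PPAT-CM over control-CM 5 were higher and 3 lower, against a background of 12.0% and 8.71%, with a median log2 ratio of 0.11 beside 0.03 over all measured genes. In PVAT-CM 1 was higher and 1 lower, against 3.15% and 3.49%. The 5 higher genes were CCT4, DNAJA1, FKBP4, PTGES3 and UBB, and the first 4 of them also stand in the lists that follow. This list was not recounted under another scaling. The lowest were RGS2, a regulator of G protein signalling, with 75, 53 and 25 counts and 3.64-fold lower in PPAT-CM (2.29 to 5.97), and HSPB8, the small heat shock protein that partners BAG3, with 187, 74 and 80 counts. HSPB8 was 2.38-fold lower in PVAT-CM (1.81 to 3.15) and 2.83-fold lower in PPAT-CM (2.17 to 3.73), low in both adipose media as CRYAB was. HSPB11, listed by its name and the other measured gene of the 8 on the small heat shock list, had a ratio of 1.05 in PPAT-CM (0.952 to 1.15). Over all measured genes with a promoter in the table, 26 had a 3-unit element, and 24 of these were not members. Of the 24, 2 were higher and 2 lower in PPAT-CM (8.33% each way), against 12.1% higher and 6.83% lower of the 9134 genes with a window.

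Partners of HSPA8 and HSP90 were counted in PPAT-CM against control-CM beside the background of 12.0% of measured genes higher and 8.71% lower, an excess of higher genes that turned with upper quartile factors. Among 8 other HSP70 exchange factors and cofactors 3 lay past 1.5-fold on the higher side and 0 on the lower, with a median log2 ratio of 0.30. STUB1, the ubiquitin ligase CHIP that acts on HSP70 clients, was 1.96-fold (1.76 to 2.19), BAG1 1.68-fold (1.51 to 1.87) and ST13 1.58-fold higher (1.52 to 1.64). Of 14 measured J-domain genes 4 were higher and 1 lower, with a median of 0.32. DNAJA1, a farnesylated partner of HSPA8, was 1.59-fold (1.49 to 1.69) and DNAJC9, a histone chaperone, 1.61-fold higher (1.31 to 1.99), while DNAJB5 was 1.85-fold lower (1.49 to 2.31). Among 18 measured HSP90 paralogs and co-chaperones 3 were higher and 0 lower, with a median of 0.23. These were PTGES3, which encodes p23, at 1.86-fold (1.77 to 1.95), the cyclophilin PPID at 1.80-fold (1.60 to 2.03) and the steroid receptor immunophilin FKBP4 at 1.56-fold (1.46 to 1.65). These lists were not recounted under another scaling. With PVAT-CM against control-CM none of the measured genes in these 3 lists passed 1.5-fold in either direction. Of all measured genes only 3.15% were higher and 3.49% lower in that comparison, so few such genes would be counted in lists of this size.

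Other chaperone groups gave mixed or small differences in PPAT-CM against control-CM. Past 1.5-fold, 12.0% of all measured genes were higher and 8.71% lower in this comparison, and nothing is read from the counts below. Of 9 measured HSP70 and HSP110 relatives 2 were higher and 1 lower, with a median of 0.07. HSPA14 was 1.65-fold (1.43 to 1.91) and the endoplasmic reticulum chaperone HYOU1 1.59-fold higher (1.45 to 1.75), and HSPA4L, an HSP110 gene like HSPH1, 1.59-fold lower (1.37 to 1.84). In PVAT-CM against control-CM the median of this list was larger, 0.34. There 1 gene was higher, HYOU1 at 1.74-fold (1.58 to 1.92), and 0 lower, against 3.15% and 3.49% of all measured genes. The 14 genes of the chaperonin CCT, which folds actin and tubulin, and of prefoldin had a median of -0.06, with CCT4 2.04-fold (1.83 to 2.28) and CCT5 1.81-fold higher (1.68 to 1.95) and PFDN6 1.64-fold lower (1.54 to 1.76). The 10 mitochondrial chaperone genes had a median of 0.33, with 1 of them, the protease subunit CLPP, past 1.5-fold at 1.60-fold higher (1.47 to 1.75). DNAJA3 was 1.46-fold (1.34 to 1.59) and GRPEL1 1.44-fold higher (1.31 to 1.57).

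Some autophagy receptors, which clear aggregates that chaperones do not refold, were higher in PPAT-CM. SQSTM1, which encodes p62, had 1182, 2321 and 6938 counts and was 2.09-fold higher in PVAT-CM (1.95 to 2.24) and 4.84-fold higher in PPAT-CM than in control-CM (4.55 to 5.15). OPTN was 1.72-fold (1.47 to 2.03) and TAX1BP1 1.55-fold higher (1.47 to 1.63) in PPAT-CM. These were the 3 of 10 measured genes of that list past 1.5-fold, with a list median of 0.28 and 0 genes lower, against 12.0% of all measured genes higher and 8.71% lower. TAX1BP1 lies near the 1.5-fold line, and upper quartile factors moved the median log2 ratio of all measured genes by -0.073. This list was not recounted under another scaling.

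**Figure D5:**
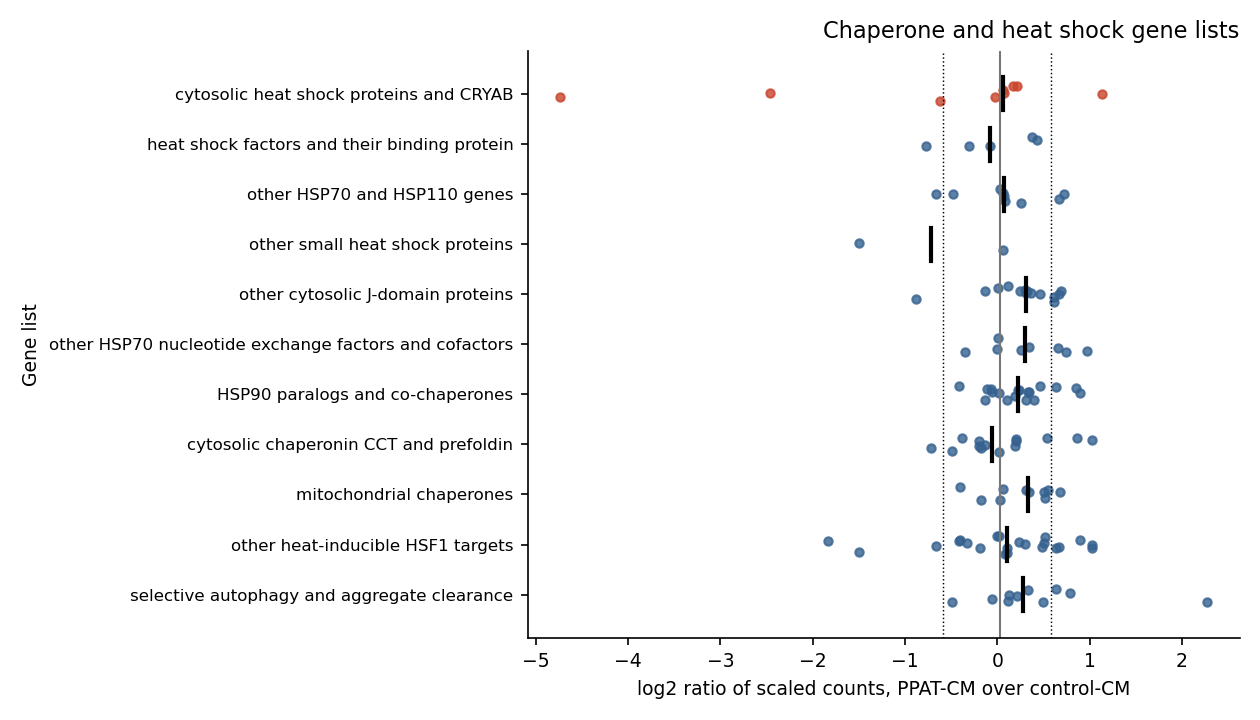
log2 ratio of scaled counts in PPAT-CM over control-CM (x axis) for the measured genes of 11 lists (y axis), 1 point per gene, with the heat shock members in red. Short black bars are list medians, the grey line is the median of all measured genes at 0.03 and dotted lines mark 1.5-fold. HSPA6 and CRYAB lie farther to the left than any gene of the other lists. The members were chosen with these decreases known, so nothing is read from that position.

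The protein-coding genes closest to HSPA6 and CRYAB in their 2 log2 ratios to control-CM were sought among 10970 measured genes, by Euclidean distance over the 3 libraries. The place of HSPA6 rests on 4 counts in PPAT-CM. Its log2 ratio there was -4.73 with a pseudocount of 0.5 and -3.70 with a pseudocount of 5, so its distances depend on that setting. Nearest to HSPA6 with a pseudocount of 0.5 were SLITRK6 (87, 73 and 12 counts), NDUFA4L2 (11421, 4304 and 1604) and LAMA3 (3443, 2103 and 626), at distances of 1.72, 1.77 and 2.00. Nearest to CRYAB were FAM131B (132, 44 and 36 counts), COL5A2 (1173, 348 and 379) and CD200 (154, 63 and 43), at 0.702, 0.714 and 0.980. Their low counts in both adipose media follow from how they were chosen.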

How the data were processed

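RNA of 3 LNCaP libraries was sequenced, 1 per medium, so edgeR's quasi-likelihood test could not be fitted and no p-value is given. The authors deposited raw counts per Ensembl gene. Per the submitters' processing notes, FastQC, Trimmomatic, HISAT2, featureCounts and edgeR were used with GRCh38. The sources used here give no versions and do not state the strand setting or the handling of reads that match several genes. Counts of near-identical genes (HSPA1A and HSPA1B, HSPA6 and HSPA7) and of genes on opposite strands (DNAJB1 and TECR, CRYAB and HSPB2) are therefore uncertain. Names and coordinates came from GENCODE release 29 (58611 of 58884 rows matched).

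TMM factors were computed with edgeR 4.0.16 in R 4.3.3. Genes with a mean count of at least 50 were kept, log2 ratios used a pseudocount of 0.5, and a gene was called past 1.5-fold. Single ratios are of scaled counts with exact conditional binomial intervals. Python 3.11.15, scipy 1.17.1 and pandas 2.3.3 were used, and the ratio steps were tested on simulated data. Reads that carry no molecular identifier can be copies of 1 molecule, so intervals cover counting error only. Members and lists were chosen with earlier results of these data known. The labels do not say whether the cultures were separate experiments. Named beside the members are the heat shock factors, HSPA7, HSPB2 and up to 3 genes per list with the largest ratio in an adipose medium against control-CM, plus the 3 nearest genes of HSPA6 and CRYAB. Genes that overlap a member or lie in its introns, and 1 defining marker or more per cell type, were named after their values were seen. Alternatives were DESeq2 1.42.0 size factors, other scalings, filters, pseudocounts and thresholds, and the sum of HSPA1A and HSPA1B. 1 marker gene is not reported here.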

Additional observations from a re-analysis of the deposited data

How the results depend on the processing

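Of 78 recounts of the members past 1.5-fold, 69 stayed within 1.5 times the reported count, a rule that passes a change from 3 to 2. By library totals and at 2-fold and 3-fold HSPB1 dropped out, which left 2 members lower in PPAT-CM against control-CM. Some recounts could not move, such as a mean count of at least 10, which kept the same 9 members. Of 180 recomputed member ratios 158 lay inside their counting interval and 22 outside. With a mean count of at least 200, HSPA6 and CRYAB were no longer measured, which left 1 member lower in PPAT-CM against control-CM, 0 in PVAT-CM against control-CM and 0 in PPAT-CM against PVAT-CM. By library totals without TMM, and at thresholds of 2-fold and 3-fold, 1 member was lower in PVAT-CM against control-CM, since HSPA6 dropped out. HSPA8 did not reach 3-fold in PPAT-CM against control-CM, nor 2-fold or 3-fold against PVAT-CM, which left 0 members higher in each case. None of the member ratios past 1.5-fold changed sign in the 5 other scalings or with a pseudocount of 5, and 7 of 30 member ratios changed sign over the scalings, all of them in BAG3, DNAJB1, HSP90AA1, HSPA1B or HSPH1 against control-CM. Library totals moved the median log2 ratio of all measured genes by 0.24 in PPAT-CM against control-CM, 0.13 in PVAT-CM against control-CM and 0.11 in PPAT-CM against PVAT-CM, and raised the higher share of all calls from 58.0% to 84.6%, from 47.4% to 78.8% and from 58.5% to 74.2%. With upper quartile factors that share was 47.0% in PPAT-CM against control-CM. TMM on nuclear protein-coding genes was added after the data were seen. The count of 4 for HSPA6 in PPAT-CM limits its fold to the wide interval given, and 1 library per medium leaves no measure of the spread between cultures. No replicate could be left out. No paired analysis was possible because each medium had 1 library.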
